A study of Homo sapiens with 9 samples.

Results

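The nuclear genes of the respiratory chain and of the mitochondrial ribosome were followed in THP-1, a cell line from a human monocytic leukaemia, after exposure to cisplatin or osimertinib. Members were the rows named with 1 gene whose symbol begins with NDUF, UQCR, ATP5, COX and a digit, or MRPL or MRPS and a digit, or is SDHA, SDHB, SDHC or SDHD. Where a gene had several rows, the row with the highest mean was used. The rule found 115 genes among the 14884 named genes. Of these members, 106 are protein-coding, 5 are non-coding RNAs and 4 are transcribed pseudogenes. All 9 cultures were THP-1 cells differentiated with the phorbol ester PMA into a macrophage-like (M0) state, so vehicle cultures carried the PMA treatment too. Differentiated cells then received cisplatin at 0.5 µM, osimertinib at 100 nM or vehicle alone, and RNA was taken after 16 h. Each of the 3 groups had 3 replicates described as biological, and each replicate went on its own Affymetrix Human Gene 2.0 ST array. Cisplatin crosslinks DNA, and osimertinib is a covalent inhibitor of mutant epidermal growth factor receptor. The data describe 1 cell line at 1 dose of each drug and 1 time.

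The respiratory chain is a series of protein complexes in the inner mitochondrial membrane. Complexes I and II take up electrons from NADH and succinate, complex III passes them to cytochrome c, complex IV (cytochrome c oxidase) reduces oxygen, and ATP synthase uses the resulting proton gradient. Mitochondrial DNA encodes a few core subunits, which are made on the mitochondrial ribosome. The proteins of that ribosome and the other subunits are encoded in the nucleus and imported. Macrophages shift between respiration and glycolysis when they are activated.

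Coverage differed sharply between the complexes. The large and small subunits of the mitochondrial ribosome had 48 of 49 and 25 of 28 genes named, and complex IV had all 17 of its subunit genes with COX symbols. The counting is against the protein-coding genes of the RefSeq table that match the same patterns. NDUFA4 and NDUFA4L2, also classed as complex IV subunits, were not among the members. Complex III had 5 of 9 genes named, the complex IV assembly factors 6 of 11, ATP synthase 3 of 20 and the complex I assembly factors 2 of 8. None of the 38 complex I subunits, the 4 complex II subunits or the 15 listed genes of mitochondrial DNA for proteins and ribosomal RNAs was named, so these were not analysed here. Most values below thus concern the mitochondrial ribosome and complex IV.

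Only genes with a mean log2 value at or above 4.28, the median of all named genes, were tested, which left 7442 genes, 88 members and 84 protein-coding members. COX4I2 at 4.37 lay just inside this limit, and ATP5IF1 at 4.26 and MRPL52 at 4.19 lay just outside it. Among 12 macrophage markers, 8 were named and 6 reached the limit, including CD68 at 9.44, CSF1R at 8.57 and TYROBP at 7.49 with vehicle. CD163 at 2.50 and LYZ at 3.12 were low, and CD14 at 4.22 was near the limit. CD68 rose by 0.51 with cisplatin and 0.30 with osimertinib, and CSF1R by 0.50 and 0.29. CD36, a scavenger receptor, fell by 0.26 with cisplatin (limma adjusted p = 0.00882) and stood at -0.07 with osimertinib, and SPI1, TYROBP and CD14 were not called, at 0.02, 0.11 and 0.07 with cisplatin and -0.00, 0.17 and 0.18 with osimertinib. Of the T-cell, B-cell, erythroid and epithelial lists, 3 of 6, 1 of 5, 0 of 5 and 4 of 5 genes were named, and CD3D, CD3E, CD3G and the haemoglobin genes were not among them. In these lists CD4 rose by 0.65 and 0.59 and KRT18 fell by 0.35 and 0.30 with cisplatin and osimertinib. The other tested markers were not called, CD8A at -0.02 and 0.01, KRT8 at 0.27 and 0.22 and the B-cell marker PAX5 at 0.32 and 0.35. The mean log2 value of the named macrophage markers was 6.20 to 6.27 on the vehicle arrays, 6.28 to 6.45 with cisplatin and 6.24 to 6.40 with osimertinib. That of the named T-cell markers was 4.30 to 4.54, 4.57 to 4.65 and 4.57 to 4.72, that of the 1 named B-cell marker 4.13 to 4.52, 4.52 to 4.74 and 4.48 to 4.77, and that of the epithelial markers 4.49 to 4.62, 4.56 to 4.73 and 4.39 to 4.65. The part of these shifts in the results below was not tested. All cultures were of 1 cell line, so these lists do not count cells of other types. Fewer cells in a given state and less RNA per cell cannot be told apart in such bulk samples.

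Most members differed little from vehicle with either drug. With cisplatin, 10 of the 88 tested members were higher and 5 lower at an adjusted p under 0.05 (limma, Benjamini-Hochberg over the 7442 genes; such members are termed called). This made 17.0% of the members, beside 31.0% of all tested genes, of which 16.5% were called higher and 14.5% lower. With osimertinib, 12 members were called higher and 7 lower, which made 21.6%, beside 30.6% of all genes, 16.9% higher and 13.7% lower. The 3 treated arrays lay wholly above or below the 3 vehicle arrays for 30.7% of members with cisplatin and 34.1% with osimertinib, beside 42.3% and 44.1% of all genes. The share of members called was below the background with both drugs in this fit, although no test of that difference was made. Without the level limit, 8 of 115 members were higher and 10 lower with osimertinib, beside 14.8% of all named genes called. With cisplatin that fit gave 9 higher and 4 lower of 115, beside 14.7%. In that fit the members' share was not below the background with osimertinib, but was below it with cisplatin.

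The median log2 difference of the members was 0.017 with cisplatin and 0.034 with osimertinib, beside 0.032 and 0.037 over all tested genes. Both medians were close to 0 and their sign depended on single arrays. The cisplatin median was -0.005 without cisplatin replicate 2, and the osimertinib median -0.024 without osimertinib replicate 1. Large differences were few among the members. A difference of at least 0.5 in either direction was found in 5.68% of members with cisplatin and 3.41% with osimertinib, beside 13.2% of all genes with each drug. No member differed by 1 or more, whereas 1.87% and 1.99% of all genes did. The median standard error was 0.114 for members and 0.108 for all genes, and the median level was 5.50 and 5.73. Members were thus measured about as precisely as other genes, at a slightly lower level.

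**Figure D1:**
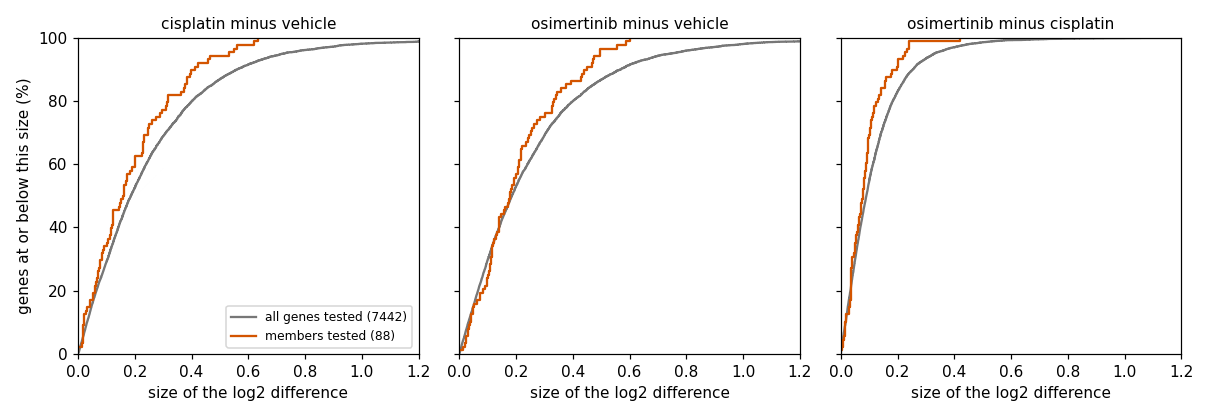
Cumulative share of genes (y axis, %) at or below a given size of the log2 difference (x axis, sign removed) in each of the 3 comparisons, for the 88 tested members and all 7442 tested genes. The members' line reaches 100% below 0.7 in every panel, whereas 13.2% of all genes lie at 0.5 or more in each comparison with vehicle.

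The counts of higher members depended on single arrays. With cisplatin the count of 10 became 18 without cisplatin replicate 1 and 6 without cisplatin replicate 3. With osimertinib the count of 12 became 5 without osimertinib replicate 1, 7 without vehicle replicate 1, 7 without vehicle replicate 3 and 8 without vehicle replicate 2. Calls over all tested genes, in both directions, moved too. With cisplatin 2308 became 2222 without cisplatin replicate 1 and 1813 without cisplatin replicate 3. With osimertinib 2277 became 1887 without osimertinib replicate 1, and 1928, 1895 and 1902 without vehicle replicates 1, 2 and 3. The count of 5 lower members with cisplatin became 3 when any cisplatin array, vehicle replicate 2 or vehicle replicate 3 was left out. The count of 7 lower members with osimertinib became 4 without vehicle replicate 2. Of the 34 calls, 17 were kept with each array left out in turn and in every other alternative run for them, 9 of 15 with cisplatin and 8 of 19 with osimertinib. Without the level limit, the cisplatin calls of COX10-DT, COX8A and MRPL10 and the osimertinib calls of COX6B1, MRPL34, MRPL36, MRPL58 and MRPS23 were lost. Over all 115 members that fit gave 8 higher and 10 lower with osimertinib, so the balance of higher and lower turned. Without variance trend and robust fitting, the cisplatin calls of COX10-DT and COX8A and both calls of MRPS10 were lost. MRPL10 also lost its cisplatin call when the osimertinib arrays were kept out of the fit. Names of all called members are given because they make up these counts; those outside the naming rule were chosen after their values were seen.

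**Figure D2:**
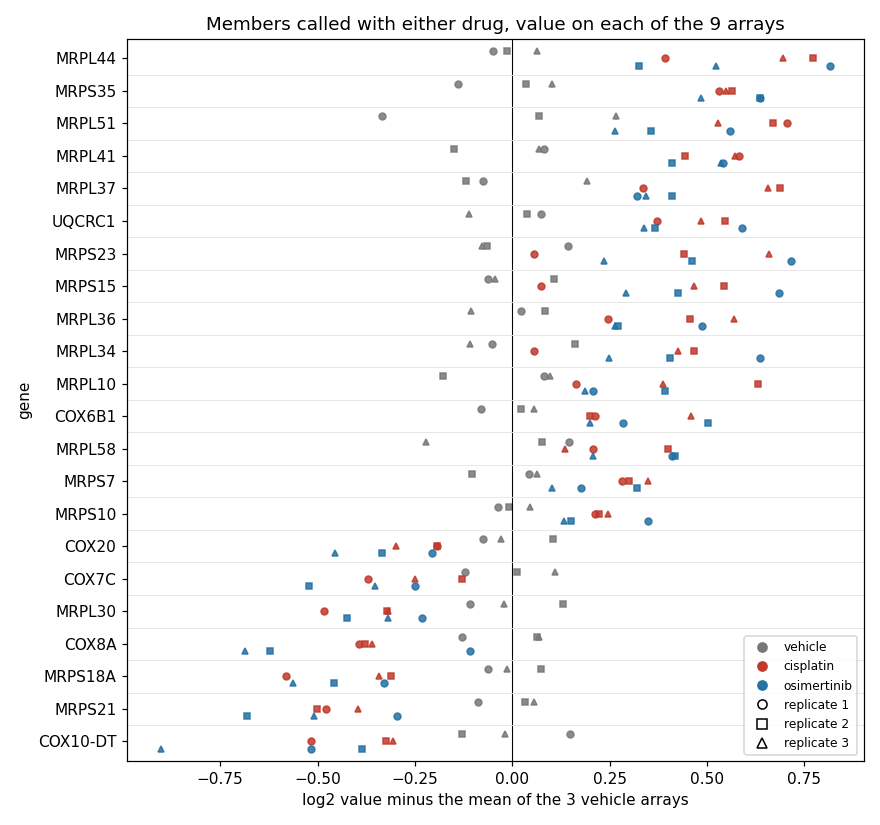
Values of the 22 members called with either drug on each of the 9 arrays, as the log2 value minus the vehicle mean of that gene (x axis), with colour for the group and shape for the replicate number. Of the 22 members, 15 lie above and 7 below vehicle with both drugs, and osimertinib replicate 1 is the highest osimertinib array for 9 of the 15.

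In complex III, UQCRC1 (Entrez gene 7384), a core protein of the matrix side of the complex, rose with both drugs. The 3 vehicle arrays read 6.64, 6.61 and 6.46 (log2), the cisplatin arrays 6.94, 7.12 and 7.05, and the osimertinib arrays 7.16, 6.94 and 6.91. Every treated array lay above every vehicle array. The difference was 0.47 with cisplatin (1.38-fold, SE 0.0896, limma adjusted p = 0.00143) and 0.43 with osimertinib (1.35-fold, adjusted p = 0.00247). Both calls were kept in every alternative, with an adjusted p of at most 0.00956 and 0.0150. Its partner core protein UQCRC2 was not called, at -0.07 (95% confidence interval -0.25 to 0.10) and -0.09 (-0.27 to 0.09). UQCRHL was not called either, at 0.02 and 0.12, and it is a near-identical copy of the hinge protein gene UQCRH that the array may not separate. No test compared UQCRC1 with its partner.

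Of the 12 tested complex IV subunits, 0 were called higher and 1 lower with cisplatin, and 1 higher and 2 lower with osimertinib. This made 8.33% and 25%, beside 31.0% and 30.6% of all tested genes. COX8A (Entrez gene 1351), one of the small nuclear-encoded membrane subunits, fell with both drugs. Its vehicle arrays read 7.45, 7.64 and 7.64, its cisplatin arrays 7.18, 7.20 and 7.22, and its osimertinib arrays 7.47, 6.95 and 6.89. The cisplatin arrays lay below all vehicle arrays, but osimertinib replicate 1 lay within the vehicle range. The drop was -0.38 with cisplatin (1.30-fold lower, SE 0.123, limma adjusted p = 0.0318) and -0.47 with osimertinib (1.39-fold lower, adjusted p = 0.00992). The cisplatin call was lost without any 1 of the cisplatin arrays, vehicle replicate 2 or vehicle replicate 3, with an adjusted p of at most 0.108 over the alternatives and differences of -0.44 to -0.34.

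COX7C (Entrez gene 1350), another small membrane subunit, read 5.59, 5.72 and 5.82 with vehicle and 5.46, 5.19 and 5.36 with osimertinib, so the groups did not overlap. It fell with osimertinib by -0.37 (SE 0.109, limma adjusted p = 0.0184). With cisplatin it read 5.34, 5.58 and 5.46, also below vehicle, and the difference of -0.25 was not called (adjusted p = 0.102). The osimertinib call was lost without osimertinib replicate 2, vehicle replicate 2 or vehicle replicate 3 (differences of -0.44 to -0.30 with single arrays left out, adjusted p of at most 0.0848). COX6B1 (Entrez gene 1340), a subunit on the intermembrane-space side, went the other way. It read 4.83, 4.93 and 4.97 with vehicle, 5.12, 5.11 and 5.37 with cisplatin, and 5.19, 5.41 and 5.11 with osimertinib. It rose with osimertinib by 0.33 (SE 0.114, limma adjusted p = 0.0434) and stood 0.29 above vehicle with cisplatin (adjusted p = 0.0714). The osimertinib call was lost without any 1 vehicle array, osimertinib replicate 1 or osimertinib replicate 2 and with arrays centred on their median, with an adjusted p of at most 0.175.

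Apart from COX6B1, the isoform pairs of complex IV that were fixed for naming gave no call among tested members. These pairs were the COX4I, COX6A, COX6B and COX7A forms, so the called COX8A was not among them. COX4I1, the widespread form of its subunit, differed by 0.03 with cisplatin and 0.21 with osimertinib (limma adjusted p = 0.0863). COX4I2, a form known from lung, differed by 0.23 and 0.26. The vehicle mean of COX4I2, 4.21, was below the level limit, so it was tested through its treated arrays. COX6A1 differed by 0.16 and 0.21, COX5A by 0.18 and 0.22, and COX7A2 by -0.00 and -0.06. The COX6A1 row used had a mean of 7.67. A far dimmer second row for COX6A1, with a mean of 1.61, gave -0.09 and 0.08, so the rows differed in sign with cisplatin. The muscle form COX7A1, the testis form COX6B2 and the muscle form COX6A2 lay below the level limit, with means of 3.38, 2.40 and 3.83. The remaining tested subunits COX5B, COX6C, COX7A2L and COX7B were not called with either drug.

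Among the assembly factors, COX20 (Entrez gene 116228), a chaperone for the mitochondrially encoded subunit MT-CO2, fell with osimertinib. Its values were 6.50, 6.68 and 6.54 with vehicle, 6.38, 6.38 and 6.27 with cisplatin, and 6.37, 6.24 and 6.12 with osimertinib. All 6 treated arrays lay below the vehicle arrays. The osimertinib difference was -0.33 (SE 0.0900, limma adjusted p = 0.0126) and the cisplatin difference, not called, was -0.23 (adjusted p = 0.0712). The osimertinib call was lost without osimertinib replicate 3 (-0.27, adjusted p = 0.0582) or vehicle replicate 2 (-0.28, adjusted p = 0.0612), and the cisplatin difference was called with arrays centred on their median (adjusted p = 0.0254). The copper carrier COX11 differed by 0.05 and -0.17 and the membrane insertase COX18 by -0.00 and -0.11, neither called.

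The complex I assembly factors NDUFAF7, a methyltransferase, and NDUFAF8 were not called. NDUFAF7 stood at -0.25 with cisplatin (95% confidence interval -0.48 to -0.02, adjusted p = 0.0992) and -0.05 with osimertinib, and NDUFAF8 at 0.11 and 0.24. The small membrane subunits of ATP synthase ATP5MJ and ATP5MK were not called, at 0.02 and 0.02 for the former and -0.23 and -0.18 for the latter. Across the 22 tested protein-coding genes of the respiratory chain, 1 was higher and 1 lower with cisplatin, and 2 higher and 3 lower with osimertinib. These calls made 9.09% and 22.7%, beside 31.0% and 30.6% of all tested genes. The cisplatin count of 1 lower gene was 0 without any 1 cisplatin array, vehicle replicate 2 or vehicle replicate 3 and 4 with centred arrays. The osimertinib counts became 4 higher without osimertinib replicate 3, 1 higher without any other osimertinib or vehicle array, and 1 lower without vehicle replicate 2.

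**Figure D3:**
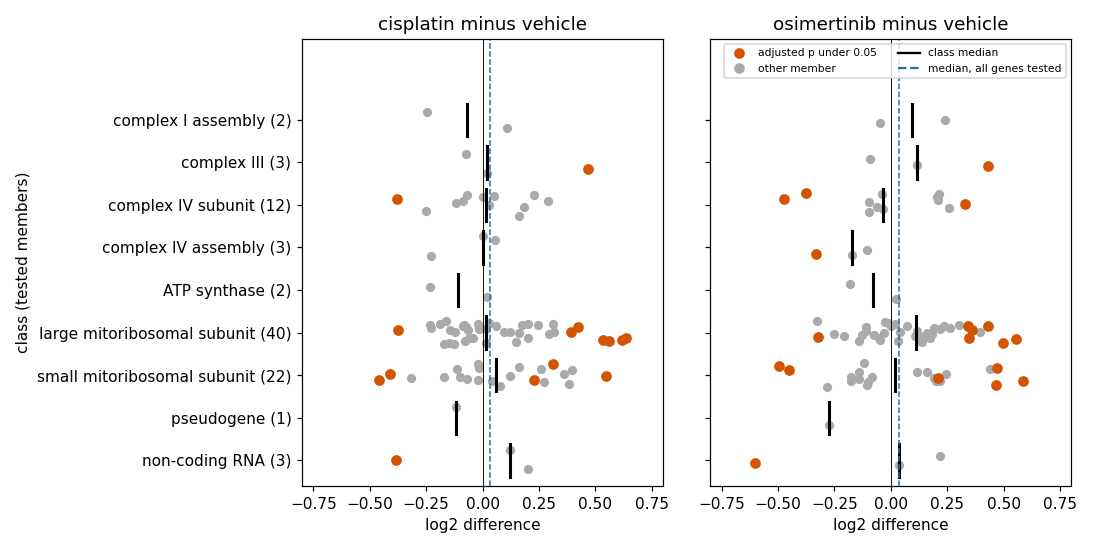
Log2 difference from vehicle (x axis) of each of the 88 tested members by class (y axis, number of members in brackets), for cisplatin on the left and osimertinib on the right. Orange points are called members, black bars class medians and the dashed line the median of all tested genes. Called members lie on both sides of 0 in both mitoribosomal classes with each drug.

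Of the 88 tested members, 62 are protein-coding genes of the mitochondrial ribosome. Of these, 9 were higher and 3 lower with cisplatin (19.4%, beside 31.0% of all tested genes), and 10 were higher and 3 lower with osimertinib (21.0%, beside 30.6%). The median difference was 0.024 with cisplatin and 0.111 with osimertinib, and 33 and 37 of the 62 genes lay above 0. The count of 9 became 17 without cisplatin replicate 1 and 5 without cisplatin replicate 3. The count of 10 became 4 without osimertinib replicate 1 and 6 without vehicle replicate 1 or vehicle replicate 3. Genes are grouped here as MRPL (large subunit) and MRPS (small subunit) by symbol.

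In the large subunit, 6 of 40 tested genes were higher and 1 was lower with each drug. This was 17.5% called, beside 31.0% of all tested genes with cisplatin and 30.6% with osimertinib. Of all tested genes, 16.5% and 16.9% were called higher. MRPL44 (Entrez gene 65080), a protein of the ribonuclease III family, read 5.72, 5.76 and 5.83 with vehicle, 6.16, 6.54 and 6.46 with cisplatin, and 6.59, 6.10 and 6.29 with osimertinib. The lowest treated array was above the highest vehicle array by more than the vehicle spread. It rose by 0.62 with cisplatin (1.54-fold, SE 0.128, limma adjusted p = 0.00230) and 0.56 with osimertinib (1.47-fold, adjusted p = 0.00469), and both calls were kept in every alternative. A dimmer second row for MRPL44 gave 0.26 and 0.24, so the rows shared the direction but not the size.

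MRPL41 (Entrez gene 64975), MRPL37 (Entrez gene 51253) and MRPL36 (Entrez gene 64979), further proteins of the large subunit, were also called with both drugs. MRPL41 read 4.94, 4.71 and 4.92 with vehicle, 5.44, 5.30 and 5.43 with cisplatin, and 5.40, 5.27 and 5.39 with osimertinib, a rise of 0.53 and 0.50 (SE 0.103, limma adjusted p = 0.00154 and 0.00248). MRPL37 read 8.17, 8.12 and 8.43 with vehicle, 8.57, 8.93 and 8.90 with cisplatin, and 8.56, 8.65 and 8.58 with osimertinib, a rise of 0.56 and 0.36 (SE 0.0955, limma adjusted p = 0.000603 and 0.0116). MRPL36 read 5.42, 5.48 and 5.29 with vehicle, 5.64, 5.85 and 5.97 with cisplatin, and 5.88, 5.67 and 5.66 with osimertinib, a rise of 0.42 and 0.34 (SE 0.110, limma adjusted p = 0.0102 and 0.0314). In all these genes the treated arrays lay above every vehicle array. The osimertinib call of MRPL37 was lost without vehicle replicate 2 (adjusted p = 0.0563). That of MRPL36 was lost without osimertinib replicate 1, vehicle replicate 1 or vehicle replicate 3 (0.27 to 0.38 with single arrays left out, adjusted p of at most 0.121), and its cisplatin call without cisplatin replicate 3 (0.35, adjusted p = 0.0551).

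Other large-subunit genes were called with 1 drug while lying above vehicle with the other, which does not show a difference between the drugs. MRPL51 (Entrez gene 51258) read 3.91, 4.31 and 4.51 with vehicle, 4.95, 4.91 and 4.77 with cisplatin, and 4.80, 4.60 and 4.51 with osimertinib. It rose by 0.63 with cisplatin (SE 0.147, limma adjusted p = 0.00494) and stood 0.39 above vehicle with osimertinib (adjusted p = 0.0579), where vehicle replicate 3 and osimertinib replicate 3 nearly coincided. Its vehicle mean of 4.24 was below the level limit of 4.28, so it was tested through its treated arrays, and its call was kept in the fit without that limit. MRPL10 (Entrez gene 124995), of the stalk that binds translation factors, read 4.73, 4.47 and 4.75 with vehicle, 4.81, 5.28 and 5.04 with cisplatin, and 4.86, 5.04 and 4.84 with osimertinib. Its rise of 0.39 with cisplatin was called (SE 0.132, limma adjusted p = 0.0376) and the 0.26 with osimertinib was not (adjusted p = 0.156). The cisplatin call of MRPL10 was lost without any 1 vehicle array, cisplatin replicate 2 or cisplatin replicate 3 (0.27 to 0.51, adjusted p of at most 0.159).

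MRPL34 (Entrez gene 64981) and MRPL58 (Entrez gene 3396), the latter a peptidyl-tRNA hydrolase that frees stalled ribosomes, were called with osimertinib. MRPL34 read 5.63, 5.84 and 5.57 with vehicle, 5.74, 6.15 and 6.11 with cisplatin, and 6.32, 6.08 and 5.93 with osimertinib. Its differences were 0.32 with cisplatin (limma adjusted p = 0.0877) and 0.43 with osimertinib (SE 0.132, adjusted p = 0.0242). Cisplatin replicate 1 fell within the vehicle range, whereas all osimertinib arrays lay above it. MRPL58 read 5.68, 5.62 and 5.32 with vehicle, 5.75, 5.94 and 5.67 with cisplatin, and 5.95, 5.96 and 5.75 with osimertinib, with differences of 0.25 (limma adjusted p = 0.133) and 0.34 (SE 0.118, adjusted p = 0.0404). Both osimertinib calls were lost without osimertinib replicate 1, osimertinib replicate 2 or vehicle replicate 3, that of MRPL34 also without vehicle replicate 1 and that of MRPL58 also without vehicle replicate 2. Left-out fits gave 0.33 to 0.52 for MRPL34 and 0.23 to 0.42 for MRPL58, with an adjusted p of at most 0.108 and 0.174 over the alternatives.

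MRPL30 (Entrez gene 51263) was the only gene grouped as MRPL that was called lower, with both drugs. It read 6.49, 6.73 and 6.58 with vehicle, 6.12, 6.28 and 6.28 with cisplatin, and 6.37, 6.18 and 6.28 with osimertinib, so no treated array reached the vehicle arrays. It fell by 0.37 with cisplatin (1.30-fold lower, SE 0.0928, limma adjusted p = 0.00762) and by 0.32 with osimertinib (1.25-fold lower, adjusted p = 0.0169). The osimertinib call was lost without osimertinib replicate 2 or vehicle replicate 2 (adjusted p of at most 0.0810), and the cisplatin call was kept in every alternative.

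Among the genes grouped as MRPS, 3 of 22 tested were higher and 2 lower with cisplatin, and 4 higher and 2 lower with osimertinib. The called share was 22.7% and 27.3%, beside 31.0% and 30.6% of all tested genes. MRPS35 (Entrez gene 60488) had the smallest p of all members in both comparisons. It read 6.60, 6.78 and 6.84 with vehicle, 7.27, 7.31 and 7.29 with cisplatin, and 7.38, 7.38 and 7.23 with osimertinib. The treated arrays lay close together and well above vehicle. It rose by 0.55 with cisplatin (1.46-fold, SE 0.0794, limma adjusted p = 0.000169) and 0.59 with osimertinib (1.50-fold, adjusted p = 9.97e-05), and both calls were kept in every alternative. MRPS10 (Entrez gene 55173) rose less but with little spread. It read 7.88, 7.90 and 7.96 with vehicle, 8.13, 8.14 and 8.16 with cisplatin, and 8.26, 8.06 and 8.04 with osimertinib. The differences were 0.23 and 0.21 (SE 0.0661, limma adjusted p = 0.0183 and 0.0268). Both calls were lost without vehicle replicate 1 or vehicle replicate 2 and in a fit without variance trend and robust fitting, the cisplatin call also without cisplatin replicate 3 and the osimertinib call without osimertinib replicate 1 (0.14).

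MRPS7 (Entrez gene 51081), which binds the ribosomal RNA of the small subunit, was called with cisplatin. It read 6.30, 6.15 and 6.32 with vehicle, 6.54, 6.56 and 6.60 with cisplatin, and 6.43, 6.58 and 6.36 with osimertinib. The rise was 0.31 with cisplatin (SE 0.0859, limma adjusted p = 0.0144), and with osimertinib the difference of 0.20 was not called (adjusted p = 0.0978). Without cisplatin replicate 3 or vehicle replicate 2 the cisplatin call was lost (0.26 to 0.34, adjusted p of at most 0.0658). All treated arrays of MRPS7 were nonetheless above all vehicle arrays.

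MRPS15 (Entrez gene 64960) and MRPS23 (Entrez gene 51649) were called with osimertinib. MRPS15 read 5.45, 5.62 and 5.46 with vehicle, 5.58, 6.05 and 5.98 with cisplatin, and 6.19, 5.94 and 5.80 with osimertinib, with differences of 0.36 (limma adjusted p = 0.0554) and 0.47 (SE 0.134, adjusted p = 0.0169). MRPS23 read 5.72, 5.51 and 5.50 with vehicle, 5.63, 6.01 and 6.23 with cisplatin, and 6.29, 6.03 and 5.81 with osimertinib, with differences of 0.38 (limma adjusted p = 0.0727) and 0.47 (SE 0.152, adjusted p = 0.0315). In both genes cisplatin replicate 1 lay within the vehicle range, and osimertinib replicate 1 was the highest of all arrays. Without osimertinib replicate 1 or vehicle replicate 3 both osimertinib calls were lost. That of MRPS15 was also lost without vehicle replicate 1, and that of MRPS23 without osimertinib replicate 2 or vehicle replicate 2. The left-out fits gave 0.36 to 0.55 for MRPS15 and 0.35 to 0.59 for MRPS23, with an adjusted p of at most 0.0800 and 0.139.

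The falls in this class were MRPS21 and MRPS18A. MRPS21 (Entrez gene 54460) read 8.45, 8.57 and 8.59 with vehicle, 8.06, 8.03 and 8.14 with cisplatin, and 8.24, 7.85 and 8.03 with osimertinib. It fell by 0.46 with cisplatin (1.37-fold lower, SE 0.0847, limma adjusted p = 0.00109) and by 0.50 with osimertinib (1.41-fold lower, adjusted p = 0.000595). MRPS18A (Entrez gene 55168), whose product sits in the large subunit despite its symbol, read 7.56, 7.70 and 7.61 with vehicle, 7.04, 7.31 and 7.28 with cisplatin, and 7.30, 7.17 and 7.06 with osimertinib. It fell by 0.41 with cisplatin (1.33-fold lower, SE 0.0875, limma adjusted p = 0.00286) and by 0.45 with osimertinib (1.37-fold lower, adjusted p = 0.00153). For both genes every treated array lay below every vehicle array, and all calls were kept in every alternative. Genes of the same particle thus moved in opposite directions.

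Among the non-coding members, COX10-DT (Entrez gene 100874058), a transcript that starts next to the assembly factor gene COX10, was called with both drugs. It read 5.42, 5.14 and 5.25 with vehicle, 4.75, 4.95 and 4.96 with cisplatin, and 4.75, 4.88 and 4.37 with osimertinib. No treated array reached the vehicle arrays, while the cisplatin and osimertinib arrays overlapped. It fell by 0.38 with cisplatin (SE 0.137, limma adjusted p = 0.0488) and by 0.60 with osimertinib (1.52-fold lower, adjusted p = 0.00445). The cisplatin call was lost in 7 of 9 fits with 1 array left out, that is without any vehicle array, any cisplatin array or osimertinib replicate 1 (-0.45 to -0.31, adjusted p of at most 0.165). NDUFB2-AS1 differed by 0.20 and 0.22, NDUFA6-DT by 0.12 and 0.04 and the pseudogene MRPL45P2 by -0.12 and -0.28, none called. MRPL45P2 and MRPL45 are similar in sequence, and the array may not part them.

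Of the 22 members called with either drug, 12 were called with both, 3 with cisplatin alone and 7 with osimertinib alone. The comparisons with vehicle share the 3 vehicle arrays, so likeness between them carries no weight of its own. The drugs were therefore also compared directly. No member was called higher or lower in osimertinib minus cisplatin by limma, beside 1.75% of all genes (0.766% higher, 0.981% lower), and 1 member had an unadjusted p under 0.05. The arrays of the drugs did not overlap for 2.27% of members, beside 14.3% of all genes. The median difference was -0.009, beside 0.010 over all genes.

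The member with that unadjusted p was MRPL39, a protein of the large subunit, named after its value was seen. It read 4.91, 4.91 and 5.11 with cisplatin and 5.43, 5.57 and 5.20 with osimertinib, around 5.24, 5.32 and 5.07 with vehicle. The difference between the drugs was 0.42 (95% confidence interval 0.16 to 0.68, limma adjusted p = 0.117). For the members called with either drug the intervals of the difference were wide against its size. For MRPS35 it ran from -0.13 to 0.21, for MRPL44 from -0.34 to 0.21, for MRPL37 from -0.41 to 0.00, for MRPL51 from -0.56 to 0.07 and for COX10-DT from -0.52 to 0.08. The missing calls do not show that the drugs act alike on these genes.

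The arrays of 1 group differed in the overall level of the members. The median deviation of the 84 protein-coding members from the vehicle mean was 0.156 on osimertinib replicate 1, against 0.037 and -0.029 on osimertinib replicates 2 and 3. On the cisplatin arrays it was -0.051, 0.067 and 0.052. All tested genes deviated in the same order on the osimertinib arrays and by less, at 0.073, 0.034 and -0.003, and on cisplatin replicate 1 at -0.031. Among the 62 mitoribosomal genes osimertinib replicate 1 stood at 0.183, and among the 22 respiratory chain genes at 0.037. The part of this array in the osimertinib counts is given above by the fit without it.

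**Figure D4:**
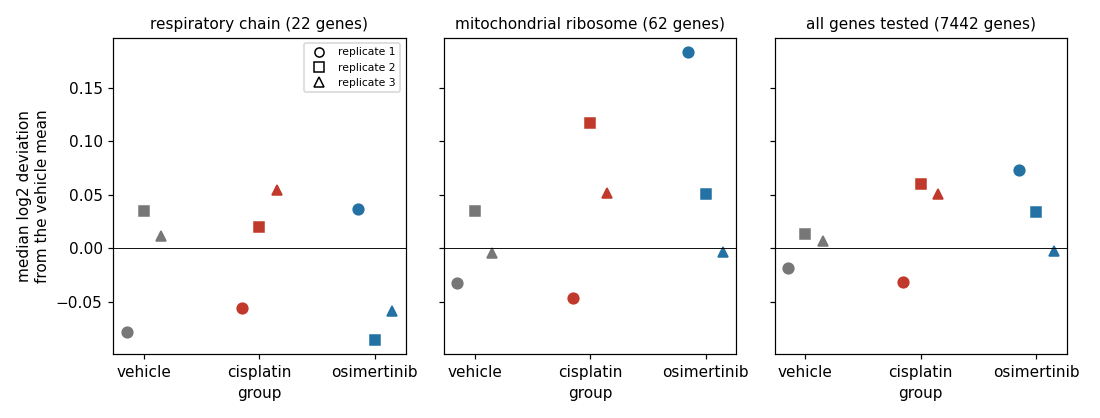
Median log2 deviation from the vehicle mean (y axis) on each of the 9 arrays, by group (x axis) and replicate (shape), for 22 respiratory chain genes, 62 mitoribosomal genes and all 7442 tested genes. Osimertinib replicate 1 is highest in the mitoribosomal panel at 0.183 and in the panel of all genes at 0.073.

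Promoters of the members were searched for motifs that are known from nuclear genes of mitochondrial proteins. Nuclear respiratory factor 1 (NRF1) and the ETS factor GABP bind such promoters, as does YY1, whereas the GC box is a common motif bound by Sp1. The 250 bases before the RefSeq start (GRCh38.p14, first start listed per gene) were available for 92 of the 106 protein-coding members. The letters searched on both strands were CGCANGCG for NRF1, CCGGAAG for ETS factors, AAGATGGC for YY1 and GGGCGG for the GC box, and matches of different motifs overlapped in 0 member promoters. The ETS letters were found in 30.4% of member promoters, beside 11.8% of all 15842 protein-coding promoters and 17.2% of those of tested genes. The NRF1 letters were in 20.7%, beside 12.5% and 17.6%, the YY1 letters in 5.43%, beside 1.39% and 2.00%, and the GC box in 54.3%, beside 56.0% and 68.9%. ETS matches were more frequent among members than among tested genes, as a description with no test.

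The ETS, NRF1 and GC box letters were found in members that rose, fell or were not called. ETS letters were present in 5 of 14 promoters of members called higher with either drug, in 4 of 6 of those called lower and in 13 of 54 of tested members not called. NRF1 letters were present in 4 of 14, 1 of 6 and 10 of 54. The GC box was present in 10 of 14, 4 of 6 and 28 of 54, and the YY1 letters in 1 of 14, 0 of 6 and 3 of 54. The 120 bases before the start are shown for members called with both drugs, as examples of rises (UQCRC1, MRPS10, MRPL41) and falls (COX8A, MRPS18A, MRPL30), 5′ to 3′ on the strand of the gene. Capitals mark the matches on either strand. Each stretch shown holds a match, so the examples do not tell how often called members hold one. MRPL37, called higher with both drugs and also outside other annotated genes, is not shown and holds no match in its 120 bases. The stretches are chr3:48609647-48609766 (minus strand), chr6:42217862-42217981 (minus), chr9:137551759-137551878 (plus), chr11:63974500-63974619 (plus), chr6:43687792-43687911 (minus) and chr2:99181064-99181183 (plus), all upstream of the annotated gene and outside other annotated genes.
UQCRC1: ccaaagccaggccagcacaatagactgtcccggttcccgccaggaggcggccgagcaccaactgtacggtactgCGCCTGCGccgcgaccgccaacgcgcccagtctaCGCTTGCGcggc
MRPS10: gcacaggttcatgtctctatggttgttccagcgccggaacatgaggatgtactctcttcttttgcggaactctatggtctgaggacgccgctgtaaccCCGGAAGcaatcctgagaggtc
MRPL41: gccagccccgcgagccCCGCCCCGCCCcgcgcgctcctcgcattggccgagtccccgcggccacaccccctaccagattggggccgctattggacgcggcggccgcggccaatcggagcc
COX8A: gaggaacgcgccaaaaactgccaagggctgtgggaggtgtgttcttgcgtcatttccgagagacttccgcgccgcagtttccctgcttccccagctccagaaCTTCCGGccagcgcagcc
MRPS18A: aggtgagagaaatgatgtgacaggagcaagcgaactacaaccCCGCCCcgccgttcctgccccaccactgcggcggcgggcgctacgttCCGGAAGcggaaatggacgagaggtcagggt
MRPL30: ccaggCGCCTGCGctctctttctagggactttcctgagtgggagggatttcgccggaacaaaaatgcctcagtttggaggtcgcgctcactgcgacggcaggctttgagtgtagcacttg
UQCRC1 holds 2 NRF1 matches in this stretch and MRPL30 holds 1. MRPS10, COX8A and MRPS18A hold 1 ETS match each, close to the start. MRPS18A holds 1 GC box as well, and MRPL41 holds 2. A rise and a fall are thus found with the same letters, and a match is no evidence that the factor binds.

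Of the regulators of these genes, NRF1 and ESRRA, an oestrogen-related receptor, were measured, and PPARGC1A, PPARGC1B, PPRC1, GABPA and TFAM were not named and not analysed here. NRF1 read 5.59, 5.62 and 5.71 with vehicle, 5.06, 5.59 and 5.59 with cisplatin, and 5.70, 5.59 and 5.64 with osimertinib, with differences of -0.23 and 0.00, not called. ESRRA read 4.86, 4.33 and 4.75 with vehicle, 4.98, 5.03 and 5.06 with cisplatin, and 5.07, 5.03 and 5.00 with osimertinib. It rose by 0.38 (SE 0.128, limma adjusted p = 0.0397) and 0.39 (adjusted p = 0.0349), with vehicle replicate 2 far below the other vehicle arrays. These calls were lost without vehicle replicate 2, without any 1 array of the drug concerned and with arrays centred on their median, and the cisplatin call also without vehicle replicate 3, osimertinib replicate 1 or osimertinib replicate 3 (adjusted p of at most 0.168 and 0.149). For this and the other lists below, the background over all tested genes is 16.5% called higher and 14.5% lower with cisplatin, and 16.9% and 13.7% with osimertinib, and no test set a list against it. Of the 8 tested biogenesis regulators, 2 were higher and 0 lower with cisplatin, and 1 higher and 0 lower with osimertinib. TWNK, the mitochondrial DNA helicase, made up the former count with ESRRA, at 0.35 (limma adjusted p = 0.0168, and at most 0.0606 over the alternatives, the call being lost without cisplatin replicate 3 or vehicle replicate 2) beside 0.26 with osimertinib (0.0653).

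Genes that feed or build the chain gave a mixed picture. Of 10 tested genes of electron carriers and other entry points, 3 were higher and 0 lower with cisplatin, and 6 higher and 0 lower with osimertinib, with medians of 0.23 and 0.21, beside 16.5% and 14.5% of all tested genes with cisplatin and 16.9% and 13.7% with osimertinib. The count of 3 was 6 without cisplatin replicate 1 and 1 without cisplatin replicate 2, cisplatin replicate 3 or vehicle replicate 2, and the count of 6 was 2 without osimertinib replicate 1 and 3 without vehicle replicate 2. SQOR, which passes electrons from sulfide to ubiquinone, read 7.77, 7.92 and 7.93 with vehicle, 8.30, 8.52 and 8.55 with cisplatin, and 8.52, 8.35 and 8.28 with osimertinib. It rose by 0.59 (limma adjusted p = 0.000133) and 0.51 (0.000361). CYC1, cytochrome c1 of complex III, rose by 0.26 with cisplatin (adjusted p = 0.0249) and stood at 0.17 with osimertinib (0.142). The CYC1 call was lost without cisplatin replicate 2, cisplatin replicate 3, vehicle replicate 1 or vehicle replicate 2 (adjusted p of at most 0.102). COQ8A, of ubiquinone synthesis, rose by 0.41 with osimertinib (adjusted p = 0.00288) and stood at 0.23 with cisplatin (0.0608). Of 32 tested assembly factors with other symbols, 3 were higher and 2 lower with cisplatin and 6 higher and 2 lower with osimertinib. Over all alternatives these counts ranged from 2 to 5 and 0 to 4 with cisplatin and from 3 to 7 and 0 to 3 with osimertinib. The count of 6 was 3 without vehicle replicate 2, and the 2 lower genes were 0 without osimertinib replicate 2 or vehicle replicate 2 and 1 without vehicle replicate 3.

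Within that assembly list, CMC1, which stabilises the newly made subunit MT-CO1, showed the largest fall named here. It read 4.91, 5.17 and 5.08 with vehicle, 4.04, 4.21 and 4.10 with cisplatin, and 4.68, 4.32 and 4.82 with osimertinib. Its cisplatin mean of 4.11 was below the level limit. It fell by 0.94 with cisplatin (SE 0.134, limma adjusted p = 0.000159) and by 0.44 with osimertinib (adjusted p = 0.0224). The osimertinib call of CMC1 was lost without osimertinib replicate 2, vehicle replicate 2 or vehicle replicate 3 (adjusted p of at most 0.103). TACO1, a translational activator of MT-CO1, rose by 0.57 (adjusted p = 0.00805) and 0.53 (0.0116). TIMMDC1, of complex I assembly, rose by 0.41 (0.0156) and 0.68 (0.000541), and SDHAF1, of complex II assembly, rose by 0.41 (0.00926) and 0.49 (0.00294). The osimertinib call of TACO1 was lost without osimertinib replicate 2 or vehicle replicate 2 (adjusted p of at most 0.0555). The cisplatin call of TIMMDC1 was lost without cisplatin replicate 2, cisplatin replicate 3 or vehicle replicate 1 (at most 0.0672). Complexes whose subunits were not analysed here thus had called assembly genes.

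Of 16 tested mitoribosomal proteins with other symbols and ribosome assembly factors, 1 was higher and 3 lower with cisplatin, and 1 higher and 1 lower with osimertinib. The 3 lower genes were 0 without vehicle replicate 3 and among genes above the 75th percentile of the level, and 1 without cisplatin replicate 1. The 1 lower gene with osimertinib was 2 without vehicle replicate 2, and this count ranged from 0 to 2 over all alternatives. The higher counts ranged from 0 to 1 with cisplatin and from 0 to 2 with osimertinib. PTCD3, a small-subunit protein, fell by 0.42 with both drugs (limma adjusted p = 0.0114 and 0.0116), and MRM2, which methylates the large ribosomal RNA, rose by 0.38 and 0.39 (adjusted p = 0.0158 and 0.0150). Both PTCD3 calls were lost without vehicle replicate 3, and both MRM2 calls without vehicle replicate 1 or vehicle replicate 3, with an adjusted p of at most 0.0810. Some treated arrays mattered too, namely osimertinib replicate 2 for PTCD3 and cisplatin replicates 2 and 3 and osimertinib replicate 1 for MRM2. Of 8 tested translation factors and tRNA synthetases, 0 were higher and 1 lower with cisplatin, and 1 higher and 0 lower with osimertinib. The recycling factor MRRF fell by 0.72 with cisplatin (adjusted p = 0.0151), where replicate 1 read 4.86 and the others 5.67 and 5.83, and stood at -0.39 with osimertinib (0.165). GATB, of glutaminyl-tRNA formation, rose by 0.37 with osimertinib (adjusted p = 0.0353) and stood at 0.31 with cisplatin (0.0698). The MRRF call was lost without vehicle replicate 3 (adjusted p = 0.0718), and the GATB call without osimertinib replicate 1, osimertinib replicate 3, vehicle replicate 1 or vehicle replicate 3 and with centred arrays (at most 0.146). Of 40 tested proteins of the cytosolic ribosome, 5 were higher and 5 lower with cisplatin, and 5 higher and 4 lower with osimertinib, so calls in both directions were found there too. RPL18 rose by 0.48 and 0.47, RPL35 by 0.33 and 0.42, and RPL34 fell by 0.43 and 0.34. The cisplatin call of RPL35 was lost without cisplatin replicate 2, cisplatin replicate 3 or vehicle replicate 1 (limma adjusted p of at most 0.0564). The osimertinib call of RPL34 was lost without osimertinib replicate 2, osimertinib replicate 3 or vehicle replicate 3 (at most 0.0793). With single settings changed the cytosolic counts ranged from 1 to 6 (higher) and 2 to 6 (lower) with cisplatin and from 3 to 6 and 1 to 5 with osimertinib. The lowest values came without cisplatin replicate 2 or vehicle replicate 1 (1 higher), without vehicle replicate 3 (2 lower), without osimertinib replicates 1 or 2 or vehicle replicate 1 (3 higher), and without osimertinib replicates 2 or 3 or vehicle replicate 3 (1 lower).

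Import and carbon metabolism were examined beside the members. Of 25 tested import genes, 5 were higher and 1 lower with each drug. The channel gene TOMM40 read 7.17, 7.10 and 6.92 with vehicle, 7.62, 7.69 and 7.69 with cisplatin, and 7.54, 7.52 and 7.49 with osimertinib, a rise of 0.60 and 0.45 (limma adjusted p = 4.62e-05 and 0.000421). The chaperone gene TIMM10B was the import gene called lower, by -0.48 and -0.53 (adjusted p = 7.67e-05 and 3.72e-05). Of 10 tested citric acid cycle genes, 2 were higher with cisplatin and 3 with osimertinib, and 0 lower. DLAT, of the pyruvate dehydrogenase complex, rose by 0.52 and 0.59, IDH3B by 0.46 and 0.42, and OGDH by 0.27 with osimertinib (adjusted p = 0.00585) beside 0.11 with cisplatin.

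Of 9 tested glycolysis genes, 5 were higher and 0 lower with cisplatin, and 2 higher and 1 lower with osimertinib. The count of 5 was 2 without cisplatin replicate 2 and 3 without cisplatin replicate 3, vehicle replicate 1 or vehicle replicate 3, and the 1 lower gene was not called without osimertinib replicate 1 or vehicle replicate 2. HK2, a hexokinase that binds the outer mitochondrial membrane, read 7.39, 7.29 and 7.36 with vehicle, 8.48, 8.72 and 8.69 with cisplatin, and 8.39, 8.44 and 8.38 with osimertinib. It rose by 1.28 (2.44-fold, limma adjusted p = 4.58e-08) and 1.06 (adjusted p = 2.30e-07). A difference of that size did not occur among the 88 tested members. HK3, the hexokinase of myeloid cells, read 3.63, 3.68 and 3.50 with vehicle, 4.77, 4.98 and 5.06 with cisplatin, and 4.58, 4.80 and 4.68 with osimertinib. It rose by 1.33 and 1.08, but its vehicle arrays were below the level limit, so it was tested through its treated arrays. In osimertinib minus cisplatin, 0 genes of any of these lists were called.

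**Figure D5:**
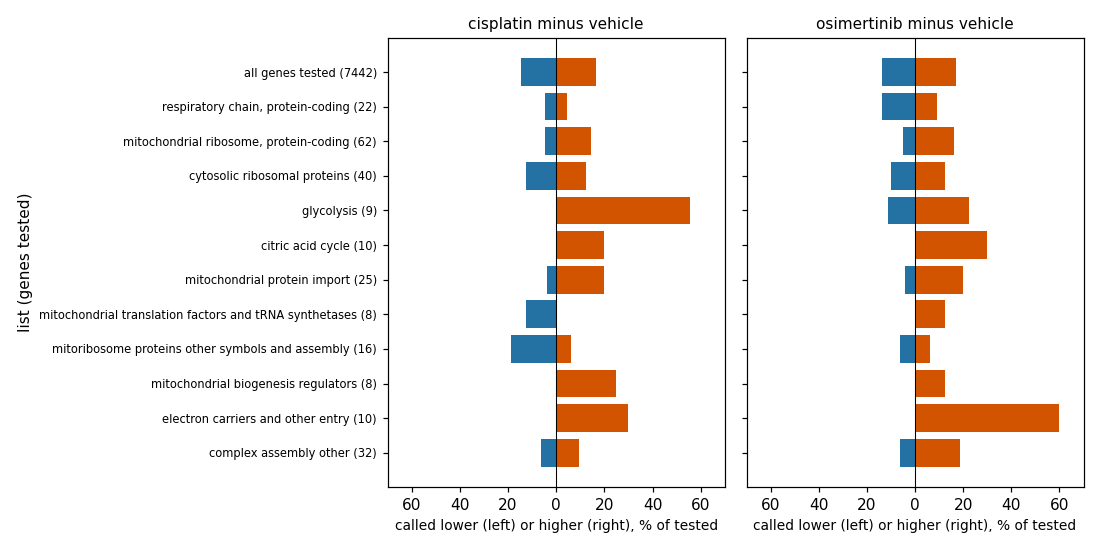
Share of tested genes called lower (blue, left) and higher (orange, right) with cisplatin and osimertinib (x axis, %) for the mitochondrial and metabolic lists, the members and all genes tested (y axis, genes tested in brackets). The electron carrier and glycolysis bars rest on 10 and 9 genes, and the 62 mitoribosomal genes lie near the bar of all 7442 genes on the higher side.

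The 27 members below the level limit were examined in a fit over all 14884 named genes, where 14.7% of genes were called with cisplatin and 14.8% with osimertinib. With cisplatin, 0 of these members were higher and 1 was lower, and with osimertinib 1 was higher and 3 were lower. MRPL52, of the large subunit, read 4.75, 4.84 and 4.23 with vehicle, 4.19, 4.16 and 4.12 with cisplatin, and 4.22, 3.56 and 3.68 with osimertinib. It fell by 0.79 with osimertinib (limma adjusted p = 0.0147) and stood at -0.45 with cisplatin (0.145). The assembly factor COX14 read 3.70, 3.64 and 3.08 with vehicle and 2.93, 2.45 and 2.95 with osimertinib, a fall of 0.70 (adjusted p = 0.0197). COX6A2 rose by 0.45 with osimertinib (adjusted p = 0.0315). The pseudogene MRPL42P5 fell by 0.79 with cisplatin and 0.53 with osimertinib (adjusted p = 0.000776 and 0.00899), and MRPL42 and MRPL42P5 are similar in sequence.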

How the data were processed

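Total RNA from 9 cultures was measured on 9 arrays, and groups, doses, the time and replicate numbers came from the labels. Per the labels, a service provider processed the scans with Affymetrix pipelines to gene-level values. The deposited values were read as log2 from their range of 0.65 to 13.17; the base is not given in the sources used here, and another base would change every fold but no call. Affymetrix Power Tools is named, without a version, in the submitters' processing notes. The medians over all rows were 3.29 to 3.37 on the 9 arrays. If the authors scaled the arrays to each other, a difference shared by most transcripts would not show. The platform annotation, which can be old, named 16098 of 53617 rows with 1 gene, and RefSeq (GRCh38.p14) gave gene classes.

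One linear model with 3 group means (limma 3.58.1 in R 4.3.3, trend and robust empirical Bayes, 6 residual degrees of freedom) was fitted to all 7442 tested genes. Its p-values were two-sided and adjusted by Benjamini-Hochberg over these genes. The p-values measure the spread between cultures of 1 line. The fit was tested on simulated data. Exact ties occur: in 26 tested members 2 or more arrays of a group gave 1 identical value, and MRPL32 and MRPL55 had 1 equal value on all 3 osimertinib arrays, which makes their spread look small.

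Named members were, for each drug, up to 4 per class with the smallest p, fixed isoform sets and regulators, and up to 2 genes per list by smallest p. All called members were added. The members and lists were chosen with earlier results of these data known. Alternatives were quantile normalization or centring, level filters, row choice, model settings, the replicate block and leaving out each array. Read depth does not exist for arrays, and their number limits the precision.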

Additional observations from a re-analysis of the deposited data

How the results depend on the processing

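No direction of a named gene reversed where it was called. The count of lower members with cisplatin was 5, 8 with arrays centred on their median, 7 with quantile normalization and 3 without variance trend and robust fitting. The count of higher members with cisplatin was 10, 15 with quantile normalization and 14 with centring. Cisplatin calls over all tested genes in both directions were 2308, 2621 with quantile normalization, 2592 with centring and 2175 without trend and robust fitting. Without the level limit the osimertinib counts of 12 higher and 7 lower became 8 and 10. The median cisplatin difference of 0.017 was -0.007 with centring and 0.079 above the 75th percentile of the level. The median osimertinib difference was 0.034 and became 0.148 over the 35 members above the 75th percentile of the level. No median over all genes at that level was set beside 0.079 and 0.148. These values thus do not show that brighter members rose more than other bright genes. With single arrays left out, the counts ranged from 6 to 18 (higher) and 3 to 5 (lower) for cisplatin and from 5 to 14 and 4 to 8 for osimertinib. The medians ranged from -0.005 to 0.046 for cisplatin, from -0.024 to 0.107 for osimertinib and from -0.053 to 0.025 between the drugs. Direct comparison of the drugs gave 0 called members in every alternative run, while 1 assembly gene and 1 glycolysis gene were called in some alternatives. Among the named genes, list genes included, 28 of the alternative values passed the threshold where the reported one did not, 132 no longer passed it and 2050 kept their side. Same-numbered arrays did not deviate together (correlations of -0.227 to 0.126 over 9 pairs, beside -0.118 to 0.197 over 18 pairs with different numbers). With group means of 3 arrays removed, these values cannot show whether same-numbered cultures were set up together, and the labels do not say. With the replicate number as a block, 9 members were higher and 4 lower with cisplatin, 10 and 7 with osimertinib, and 0 and 0 between the drugs. Calls lost under the block were those of COX10-DT and MRPL10 with cisplatin and of COX6B1, MRPL36 and the list gene GATB with osimertinib. Restriction to protein-coding members, chosen after seeing the data, gave 10 and 4 and 12 and 6. For arrays the number of replicates and the signal of dim probes limit what can be seen.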
